A study of Mus musculus with 6 samples.

Results

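The liver transcripts described here belong to 9 genes of glycogen metabolism: 5 enzymes of glycogen (*Ugp2*, *Gyg*, *Gys2*, *Gbe1* and *Pygl*) and 4 subunits that bring protein phosphatase 1 (PP1) to the glycogen particle (*Ppp1r3b*, *Ppp1r3c*, *Ppp1r3d* and *Ppp1r3g*). They were chosen by name, with earlier results of these data known, and all 9 were found among the 54532 genes of the count table. The study used male C57BL/6J mice that were fed a high-fat diet (HFD) for 6 weeks from the age of 8 weeks, which served as its model of insulin resistance (IR). After a 16 h fast, 3 mice received insulin (0.75 units per kg, i.p.; IR insulin group) and 3 received bovine serum albumin (BSA), its vehicle (IR vehicle group), and livers were sequenced 6 h later. All 6 mice carried the same diet and fast, and chow-fed mice were not analysed here. Each library came from a separate mouse, as the study describes its groups.

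Liver stores glucose as glycogen after a meal and releases it during fasting. Ugp2 makes UDP-glucose, Gyg (glycogenin) primes a new particle, Gys2 (the liver glycogen synthase) lengthens its chains and Gbe1 adds branches, whereas Pygl (the liver glycogen phosphorylase) removes glucose units. PP1 activates the synthase and inactivates the phosphorylase by removing phosphate, and the Ppp1r3 subunits place it on glycogen. Much of the action of insulin on these enzymes is exerted through phosphorylation, which RNA sequencing does not measure.

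Libraries held 18449986 to 21827619 read counts, and levels are given as CPM, the counts scaled by library size after TMM adjustment. The 3 vehicle libraries were less alike (mean Pearson's r of log2 CPM with the others of the group 0.899 to 0.934 across genes, which are not independent replicates) than the 3 insulin libraries (0.980 to 0.983). Each vehicle library was closer to the insulin libraries than to its own group (0.984 against 0.934, 0.908 against 0.899 and 0.953 against 0.913 for replicates 1, 2 and 3). In vehicle replicate 2, deviations from the other libraries followed GC content (Spearman's rho −0.68 across genes, against −0.15 to 0.32 elsewhere). Results below are therefore given with and without these libraries. The tissue label was checked on markers. The 6 hepatocyte markers summed to 64465 to 152832 CPM with vehicle, highest in replicates 2 and 3, and to 53399 to 68412 CPM with insulin. The 6 skeletal muscle markers summed to 0.264 to 0.646 CPM, with *Acta1*, *Myh1* and *Tnnt3* at 0 in every library. Pericentral markers summed to 11963 to 18258 CPM with vehicle and 9959 to 12368 CPM with insulin, and periportal markers to 577 to 1659 and 494 to 731 CPM. Erythroid markers reached 1181 CPM in vehicle replicate 2 and 292 to 589 CPM elsewhere. Adipocyte markers summed to 63.5, 26.6 and 0.191 CPM in vehicle replicates 1, 2 and 3 against 154, 96.6 and 25.0 CPM with insulin, and neutrophil markers to 3.39 CPM in vehicle replicate 3 and 26.4 to 70.8 CPM elsewhere. Markers of pancreas, macrophages, bile duct, stellate and endothelial cells summed to at most 454 CPM each. The part of these cells in the results was not tested. In whole liver, fewer hepatocytes and less RNA per hepatocyte cannot be told apart.

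Relative to transcript length, the enzymes that handle the bulk of glucose were the most abundant members. Over the 6 libraries, *Ugp2* was at 116 ± 58.7 (SD, n = 6) CPM per kb of transcript, *Pygl* at 69.0 ± 16.2, *Gys2* at 63.1 ± 25.9, *Gbe1* at 27.9 ± 8.11, *Ppp1r3b* at 26.4 ± 5.44, *Ppp1r3c* at 11.4 ± 4.17, *Gyg* at 4.18 ± 1.08, *Ppp1r3g* at 1.18 ± 2.06 and *Ppp1r3d* at 0.0765 ± 0.0433. The order of *Ugp2* over *Pygl*, *Gys2* over *Gbe1*, *Ppp1r3b* over *Ppp1r3c* and *Ppp1r3c* over *Gyg* held in 6 of 6 libraries. *Pygl* exceeded *Gys2* in 5 of 6 and *Gbe1* exceeded *Ppp1r3b* in 4 of 6, so the order of these neighbours varied between libraries. *Gyg* over *Ppp1r3g* and *Ppp1r3g* over *Ppp1r3d* held in 5 of 6 each, with the exceptions in vehicle replicates 3 and 2.

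**Figure D1:**
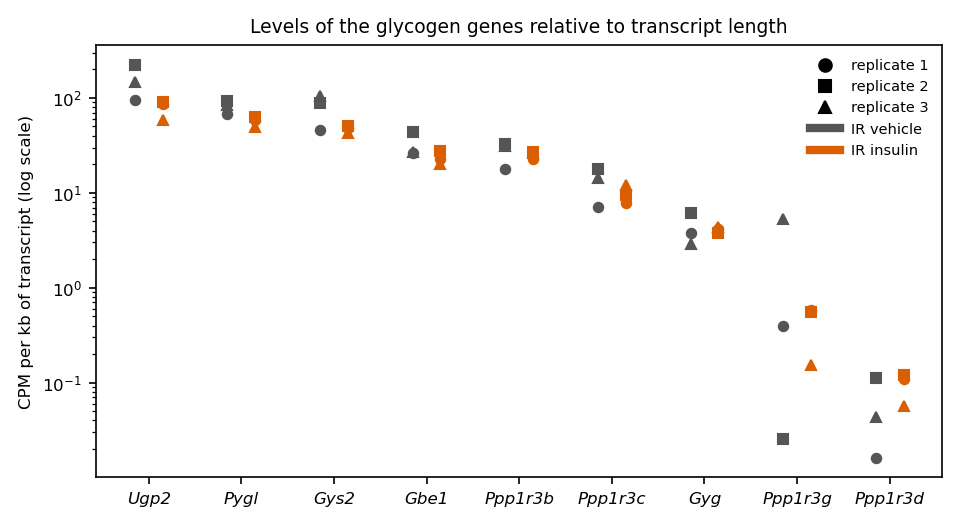
Levels of the 9 genes in CPM per kb of transcript (log axis), 1 point per library, grey for IR vehicle and orange for IR insulin. *Ugp2*, *Pygl* and *Gys2* lie highest, *Ppp1r3d* lies lowest, and *Ppp1r3g* spreads most, from 0.0257 to 5.35 in the vehicle libraries.

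The liver isoforms made up nearly all of their families. *Gys2* accounted for 99.1 ± 0.741% of the summed synthase level per kb with vehicle and 98.3 ± 0.492% with insulin (SD, n = 3), the rest being *Gys1*, the synthase of muscle and most other tissues. *Pygl* accounted for 98.5 ± 0.437% and 97.8 ± 0.649% of phosphorylase. *Pygb*, the brain isoform, held 1.28 ± 0.327% and 1.99 ± 0.556%, and *Pygm*, the muscle isoform, had 0 to 17 counts. Among the glycogen-targeting subunits, *Ppp1r3b* (GL, the major one in liver) held 62.6 ± 3.49% of the summed level per kb with vehicle and 67.9 ± 2.71% with insulin, and *Ppp1r3c* (protein targeting to glycogen, PTG) held 29.0 ± 4.99% and 25.8 ± 3.06%. *Ppp1r3e* held 4.37 ± 2.80% and 4.77 ± 0.759%. In vehicle replicate 3, *Ppp1r3g* held 10.1% and *Ppp1r3b* 58.8%. *Ppp1r3a*, the muscle subunit, had 1 or 2 counts in each library.

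Promoter sequence is shown for the members whose values separated the groups or varied most, since regulation of these genes is the question the comparison bears on. RefSeq promoters (GRCm38.p6) were matched by symbol for 7 of the 9 genes, with 8 start sites; *Gys2* and *Ppp1r3b* had no entry. In the 250 bases before the start site, capitals mark the letters TGACG on either strand, the core of the cAMP response element (CRE).
*Ugp2*, chr11:21371268-21371517, minus strand: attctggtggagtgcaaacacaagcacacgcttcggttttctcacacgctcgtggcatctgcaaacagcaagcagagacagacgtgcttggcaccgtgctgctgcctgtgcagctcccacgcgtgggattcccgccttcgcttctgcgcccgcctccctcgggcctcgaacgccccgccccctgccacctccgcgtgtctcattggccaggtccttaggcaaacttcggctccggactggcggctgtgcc
*Pygl*, chr12:70227684-70227933, minus strand: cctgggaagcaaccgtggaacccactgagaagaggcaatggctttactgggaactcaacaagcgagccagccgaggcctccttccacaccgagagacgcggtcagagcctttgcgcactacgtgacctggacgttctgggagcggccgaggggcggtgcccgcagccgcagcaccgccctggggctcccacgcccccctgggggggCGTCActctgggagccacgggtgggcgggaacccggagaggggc
*Ppp1r3g*, chr13:35967656-35967905, plus strand: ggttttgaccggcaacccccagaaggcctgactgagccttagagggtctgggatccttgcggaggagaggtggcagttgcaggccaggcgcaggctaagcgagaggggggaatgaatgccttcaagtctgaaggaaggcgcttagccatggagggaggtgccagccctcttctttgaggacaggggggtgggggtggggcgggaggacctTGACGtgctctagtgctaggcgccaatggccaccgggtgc

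An E-box, CACGTG, which is the letters read by factors such as USF1, stood in the promoters of *Ppp1r3c*, *Gyg* and *Ppp1r3d*. These are shown with 15 bases on each side, with the E-box and any TGACG in capitals. In *Gyg* and *Ppp1r3d* the E-box ran on into TGACG, so that the letters of both motifs overlapped. Relative to the start site, the E-box began at −104 in *Ppp1r3c* and −226 in *Ppp1r3d*, and at 9, after the site, in *Gyg*.
*Ppp1r3c*, chr19:36736688-36736723, minus strand: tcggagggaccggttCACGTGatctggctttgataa
*Gyg*, chr3:20155088-20155123, minus strand: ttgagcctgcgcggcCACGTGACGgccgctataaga
*Ppp1r3d*, chr2:178414669-178414704, minus strand: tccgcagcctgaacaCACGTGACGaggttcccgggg

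Between 250 bases before and 50 after the start site, and on both strands, CACGTG was found in 3 of the 8 member promoters and in 7.15% of the 32851 promoters of the table. TGACG was found in 4 of 8 and in 20.8% of all, and CCAAT in 3 of 8 and in 37.4% of all. GTAAACA (FOXO), the full CRE TGACGTCA and TTGCACAA (C/EBP) were found in 0 of 8, and in 3.65%, 1.79% and 1.01% of all. These letters describe the windows searched and show no binding.

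Insulin-injected mice had lower mean levels of most glycogen enzymes than vehicle-injected mice, and for *Ugp2*, *Gys2* and *Pygl* vehicle replicates 2 and 3 were the highest of the 6 libraries. The comparison asks which transcripts still respond to insulin in the IR liver. Positive log2 fold changes are higher with insulin. All p values come from the quasi-likelihood test of edgeR. The fit held 8 of the 9 members; *Ppp1r3d* was below the filter on low counts. The log2 fold change was negative for 8 of 8, with a median of −0.49. Of all 13377 genes tested, 6876 were lower, with a median of −0.017. The number of members lower was 6 of 8 without vehicle replicate 2 and 6 of 8 without vehicle replicate 3. No member passed an adjusted p of 0.05, and 0 of 13377 genes did (0%; 383 had an unadjusted p under 0.05), as was also the case with DESeq2 (0 adjusted, 507 unadjusted). The smallest adjusted p among the members was 0.852. By the criteria of the study's methods (absolute log2 fold change of at least 0.35, unadjusted p under 0.05), 2 of 8 were lower with insulin, *Ugp2* and *Gys2*, where 1.86% of all genes tested were. None were higher, where 134 of 13377 genes were, and 2.86% of all genes passed in either direction.

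**Figure D2:**
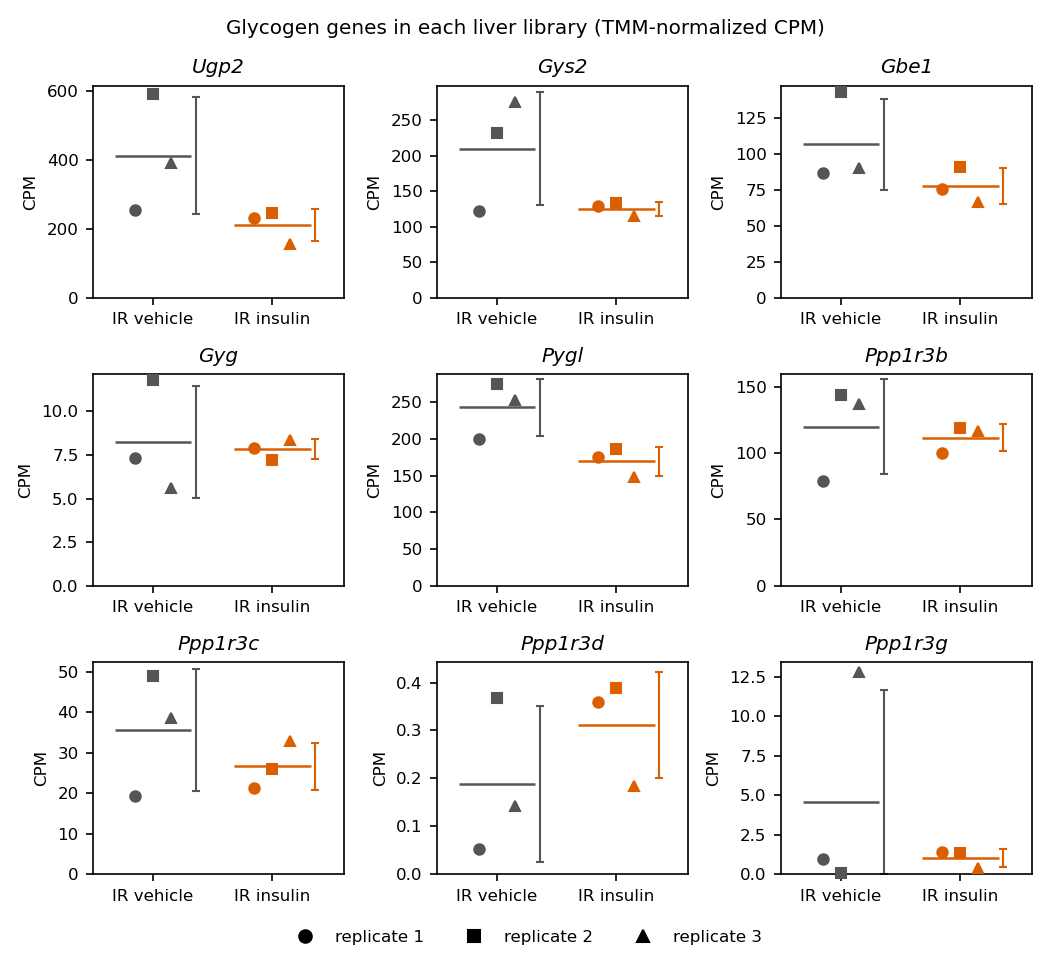
TMM-normalized CPM of each of the 9 genes (linear axes from 0), 1 point per mouse with the replicate number given by its shape; lines are group means, bars are SD (n = 3), ending at 0 where they would pass it. For *Ugp2* and *Pygl* every insulin value lies below every vehicle value, whereas for *Gys2* vehicle replicate 1 lies among the insulin values.

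*Ugp2* (chromosome 11, 21321138 to 21371201, minus strand, mouse build 38), which forms the glucose donor for the synthase, showed the largest difference among the enzymes. Its values, in the order of replicates 1, 2 and 3 here and for the other genes, read 255, 594 and 391 CPM in the vehicle group against 231, 245 and 157 CPM in the insulin group. All insulin values were below all vehicle values, although vehicle replicate 1 exceeded the highest insulin value by little. Group means were 413 ± 170 and 211 ± 47.6 CPM (SD, n = 3). The log2 fold change was −0.97 ± 0.35 (SE; unadjusted p 0.0257, edgeR). Its transcript had 39.1% GC, lower than nearly all genes tested (percentile 3.40), and with an offset for GC content the difference was −0.62 (unadjusted p 0.0474). It was −0.61 without vehicle replicate 2 (unadjusted p 0.0572) and −1.22 without vehicle replicate 1 (0.00753), and the unadjusted p was 0.0575 and 0.101 without insulin replicates 1 and 3.

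*Gys2* (chromosome 6, 142422613 to 142473109, minus strand) was at 122, 232 and 276 CPM with vehicle and at 129, 133 and 114 CPM with insulin. Vehicle replicate 1 lay within the range of the insulin group, so the groups overlapped, and the insulin values were close together. Means were 210 ± 79.7 and 125 ± 9.69 CPM (SD, n = 3). The log2 fold change was −0.74 ± 0.32 (SE; unadjusted p 0.0484, edgeR). This call rested on single libraries. Leaving out vehicle replicate 2 or 3 gave an unadjusted p of 0.0770 or 0.145, leaving out any 1 insulin library gave 0.0977 to 0.141, and the difference was −0.50 in the absence of vehicle replicate 3. Without vehicle replicate 1 it was −1.02 (unadjusted p 0.00386).

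*Pygl* (chromosome 12, 70190811 to 70231488, minus strand), which starts the breakdown of glycogen, was at 200, 275 and 253 CPM with vehicle and at 175, 187 and 148 CPM with insulin. Every insulin value was below every vehicle value. For *Pygl* the log2 fold change was −0.52 ± 0.23 (SE; unadjusted p 0.0569, edgeR). This p was under 0.05 with DESeq2 (0.0388), with a GC offset (0.0264) and without vehicle replicate 1 (0.0328). It was 0.107 with no filter on low counts and 0.0611 to 0.201 when any other library was left out, with a difference of −0.41 when that was vehicle replicate 2. *Pygl* and *Ugp2* were the members whose insulin values lay below all vehicle values, 2 of the 8 tested, as was the case for 6.04% of all genes tested.

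*Gbe1* (chromosome 16, 70313949 to 70569716, plus strand) was at 86.5, 143 and 90.0 CPM with vehicle and at 75.6, 90.9 and 66.2 CPM with insulin. Vehicle replicate 2 stood above the other 5 libraries, which overlapped. The log2 fold change was −0.46 ± 0.27 (SE; unadjusted p 0.133, edgeR), −0.18 when vehicle replicate 2 was omitted and −0.21 after the GC offset. *Gyg* (chromosome 3, 20122084 to 20155317, minus strand) was at 7.30, 11.8 and 5.58 CPM with vehicle and at 7.92, 7.23 and 8.35 CPM with insulin. The insulin values lay within the vehicle range. A log2 fold change of −0.067 ± 0.32 was obtained (unadjusted p 0.839, edgeR), with the opposite sign (0.29) without vehicle replicate 2.

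The PP1-targeting subunits differed less between groups than *Ugp2* or *Gys2* did, except for the rare *Ppp1r3g*; these differences between genes were not tested. *Ppp1r3b* (chromosome 8, 35375739 to 35388139, plus strand) was at 79.0, 144 and 137 CPM with vehicle and at 99.8, 119 and 116 CPM with insulin. Vehicle replicate 1 was the lowest and the other vehicle libraries were the highest, with all insulin values between them. For *Ppp1r3b* the log2 fold change was −0.10 ± 0.28 (SE; unadjusted p 0.717, edgeR), and 0.051 and 0.0035 without vehicle replicates 2 and 3. *Ppp1r3c* (chromosome 19, 36731731 to 36736653, minus strand) was at 19.2, 48.9 and 38.6 CPM with vehicle and at 21.2, 25.9 and 32.7 CPM with insulin. Its groups overlapped in the same manner, with vehicle replicate 1 lowest. For *Ppp1r3c* the log2 fold change was −0.42 ± 0.36 (unadjusted p 0.278, edgeR), and −0.72 (unadjusted p 0.0406) without vehicle replicate 1.

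*Ppp1r3g* (chromosome 13, 35958839 to 35970388, plus strand), a subunit tied in liver to the turn from fasting to feeding, was the most variable member. It had 18, 1 and 268 counts in vehicle replicates 1, 2 and 3 and 31, 31 and 8 counts in the insulin libraries. Vehicle replicate 3 was far above the rest at 12.8 CPM, against 0.0614 to 1.40 CPM in the other 5 libraries. With all 6 libraries its log2 fold change was −2.15 ± 1.32 (SE; unadjusted p 0.143, edgeR) and became 0.99 without vehicle replicate 3. It was −2.71 (unadjusted p 0.0260) without vehicle replicate 2, the library with 1 count. *Ppp1r3d* (chromosome 2, 178411206 to 178414472, minus strand) had 1, 6 and 3 counts with vehicle and 8, 9 and 4 with insulin, and a difference was not detectable at this depth.

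Leaving out vehicle replicate 1, the vehicle library most like the insulin group, gave the most members past an unadjusted p of 0.05: 4 of 8, all lower with insulin (*Ugp2*, *Gys2*, *Pygl* and *Ppp1r3c*), where 5.33% of 13750 genes passed the study's criteria in that direction. The smallest adjusted p of a member was then 0.473. The count was 1, 1, 0, 1 and 0 without vehicle replicates 2 and 3 and insulin replicates 1, 2 and 3. That member was *Ppp1r3g* without vehicle replicate 2, and *Ugp2* without vehicle replicate 3 or insulin replicate 2. Of all genes tested in these fits, 2.06%, 4.86%, 0.492%, 0.505% and 0.496% were lower by the study's criteria. Hepatocyte markers were also highest in vehicle replicates 2 and 3, and their part in these differences was not tested. *Gys2*, *Pygl*, *Ugp2*, *Gbe1* and *Ppp1r3c* kept a negative log2 fold change in all 6 of these fits, which share most of their libraries.

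**Figure D3:**
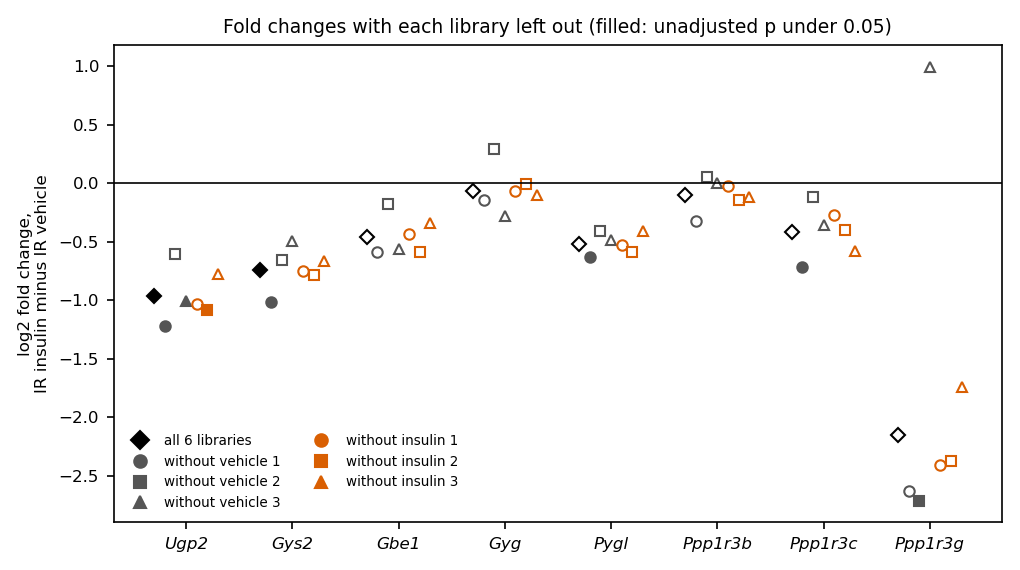
Log2 fold change of the 8 members tested (IR insulin minus IR vehicle) with all 6 libraries (diamonds) and with each library left out; filled symbols have an unadjusted p under 0.05. *Ugp2*, *Gys2*, *Pygl*, *Gbe1* and *Ppp1r3c* stay below 0 throughout, and *Ppp1r3g* moves from −2.15 to 0.99 without vehicle replicate 3.

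Ratios of the level per kb within a library do not depend on its size. No offset for GC content was applied to them, and the transcripts of *Ugp2* and *Ppp1r3b* had 39.1% and 48.4% GC. *Gys2* to *Pygl*, the synthase against the phosphorylase, was 0.683, 0.949 and 1.23 with vehicle and 0.829, 0.803 and 0.872 with insulin. The insulin values lay inside the vehicle range, so this balance did not separate the groups. *Ppp1r3b* to *Gys2* was 0.394, 0.375 and 0.301 with vehicle and 0.470, 0.541 and 0.616 with insulin. All insulin ratios were above all vehicle ratios, with means of 0.357 ± 0.0492 and 0.542 ± 0.0732 (SD, n = 3). The same separation was found for *Ppp1r3b* to *Pygl* (0.332 ± 0.0546 and 0.453 ± 0.0757) and *Ppp1r3b* to *Ugp2* (0.184 ± 0.0336 and 0.338 ± 0.102). For *Pygl* it was narrow, with a highest vehicle ratio of 0.370 and a lowest insulin ratio of 0.389. In the other ratios computed, among them *Ppp1r3c* to *Gys2* and *Ppp1r3b* to *Ppp1r3c*, the groups overlapped. The ratios to *Ppp1r3b* were chosen after the values were seen, among 10 computed, and were not tested. Of all genes tested, 14.1% had a ratio to *Gys2* that was higher with insulin without overlap, so *Ppp1r3b* was 1 of 1891 such genes. The same held for 33.3% of genes in the ratio to *Pygl* and for 40.5% in the ratio to *Ugp2*, both of which were themselves lower in every insulin library.

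**Figure D4:**
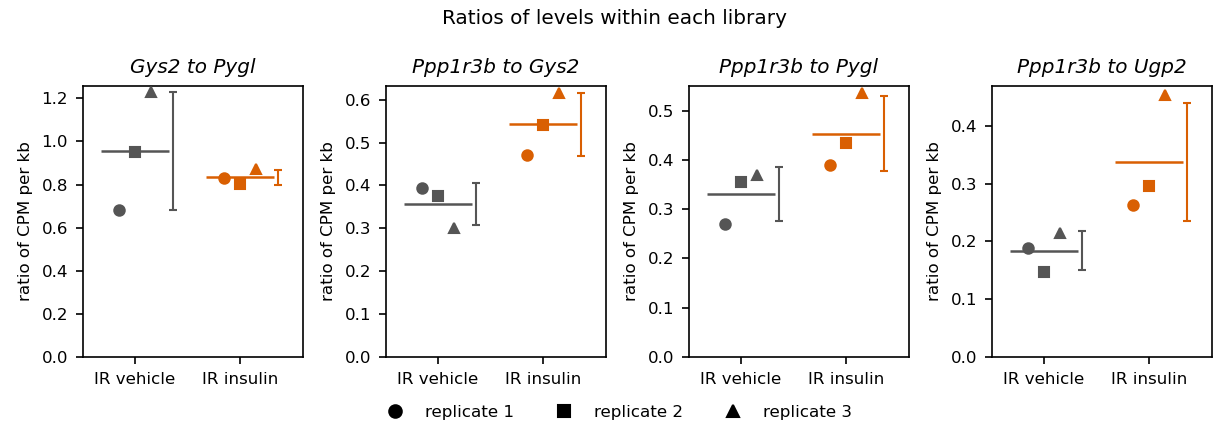
Ratios of CPM per kb within each library for 4 pairs of members (linear axes from 0), 1 point per mouse, with group means and SD (n = 3). The *Gys2* to *Pygl* ratios of the groups overlap, whereas each ratio of *Ppp1r3b* to *Gys2*, *Pygl* or *Ugp2* is higher in all 3 insulin libraries than in all 3 vehicle libraries.

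A list of 30 other genes of the pathway was read in the same fit, and 25 of them were tested. Their median log2 fold change was −0.22, with 15 lower and 10 higher, and 1 passed the study's criteria in each direction. *Nhlrc1*, which encodes malin, a ubiquitin ligase that acts on glycogen-associated proteins, was higher with insulin. It was at 2.27, 1.72 and 1.19 CPM with vehicle and at 2.70, 3.68 and 3.78 CPM with insulin. It was higher without overlap, 1 of the 25 pathway genes tested, as were 836 of all 13377 genes tested. Its log2 fold change was 0.97 ± 0.37 (unadjusted p 0.0310, edgeR), and 0.73 (0.0861) with a GC offset. The unadjusted p was 0.0716, 0.0986 and 0.0941 without vehicle replicate 3 and insulin replicates 2 and 3.

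The other named genes of the list had an unadjusted p above 0.05 in the edgeR fit of all 6 libraries. *Ppp1r2*, which encodes inhibitor 2 of PP1, was at 38.1, 57.8 and 50.9 CPM with vehicle and at 35.1, 35.5 and 35.7 CPM with insulin. Its groups did not overlap (log2 fold change −0.47 ± 0.23 SE, unadjusted p 0.0730, edgeR; −0.24 with a GC offset). *Pgm2* in the table (the gene on chromosome 4, 99929414 to 99987294, named *Pgm1* in the annotation), a phosphoglucomutase that links glucose 1-phosphate and glucose 6-phosphate, was at 193, 280 and 266 CPM with vehicle and at 189, 197 and 170 CPM with insulin. Vehicle replicate 1 again lay among the insulin values (−0.41 ± 0.24, unadjusted p 0.121, edgeR). *G6pc*, which releases free glucose, differed by −1.14 ± 0.52 (unadjusted p 0.0579, edgeR). Its unadjusted p was 0.0275 with DESeq2 and 0.0167 in edgeR with no filter on low counts, and the difference was −0.34 (0.328) without vehicle replicate 3. Of the PP1 catalytic subunits, *Ppp1cb* differed by −0.70 ± 0.34 (unadjusted p 0.0698, edgeR), by −0.23 when vehicle replicate 2 was omitted and by −0.35 after the GC offset. All its insulin values were below all its vehicle values, as for *Ppp1r2*. This held for 2 of the 25 pathway genes tested and for 6.04% of all genes tested. *Ppp1ca* and *Ppp1cc* differed by 0.19 ± 0.34 and 0.11 ± 0.22 (unadjusted p 0.587 and 0.627, edgeR), with the opposite sign for *Ppp1ca* without vehicle replicate 2 or with a GC offset and for *Ppp1cc* without vehicle replicate 1. Without vehicle replicate 1, 8 pathway genes reached an unadjusted p under 0.05, 6 lower and 2 higher, with *Nhlrc1* among the latter. Of the 13750 genes tested in that fit, 733 were lower and 616 higher by the study's criteria.

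**Figure D5:**
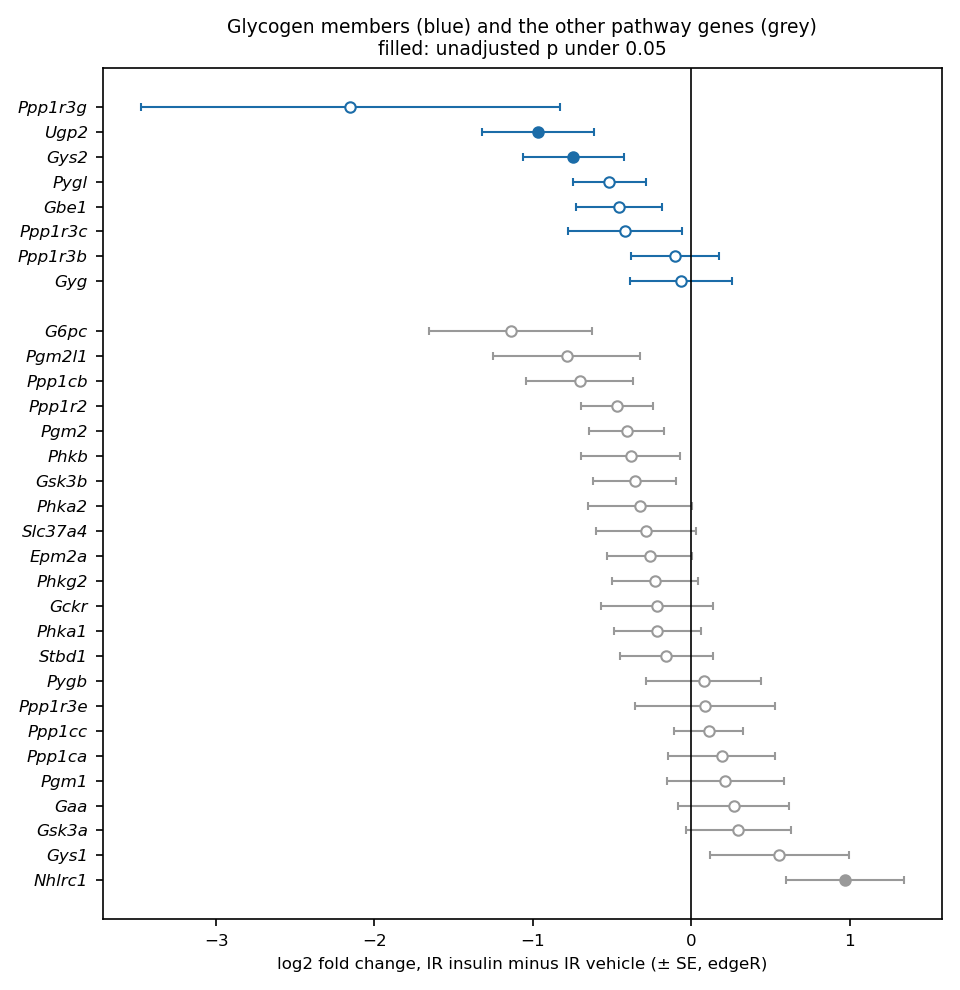
Log2 fold changes (IR insulin minus IR vehicle, ± SE, edgeR) of the 8 members tested (blue) and of other pathway genes (grey); filled points have an unadjusted p under 0.05. All 8 members lie below 0, with *Ugp2* and *Gys2* filled, and among the pathway genes drawn *Nhlrc1* (higher) is filled.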

How the data were processed

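The deposited table is described as processed data, and its columns were read as raw counts per Ensembl gene. Per the study's methods and the labels' processing notes, NEBNext Ultra libraries were sequenced on an Illumina HiSeq and aligned with Bowtie2 2.2.3 to build 38 (mm10). The counting program and its strand setting are not given in the sources used here. *Ugp2*, *Pygl*, *Ppp1r3b* and *Ppp1r3g* overlap genes with 0 to 13 counts. Bowtie2 does not splice reads, so reads across exon junctions can be lost. Members had from 1 exon (*Ppp1r3d*) to 20 exons (*Pygl*). Levels per kb, shares and ratios between genes were not corrected for this loss.

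All 6 libraries entered edgeR 4.0.16 (R 4.3.3; TMM, filterByExpr with a minimum count of 10, glmQLFTest, no covariate, Benjamini-Hochberg over 13377 genes; biological coefficient of variation 0.357). SEs were derived from the F statistic. An exact permutation test of 3 against 3 cannot go below 0.1 and was not used. Length and GC content came from the longest protein-coding transcript of GENCODE M21, in which 99.9% of the genes were found by identifier. The GC offset was a loess curve per library (span 0.5). Scripts were tested on simulated data. Those data had no GC trend and the same spread in both groups, so performance on the present libraries was not measured. DESeq2 1.42.0, the study's tool, was an alternative. Libraries were of like depth (18449986 to 21827619 counts).

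Named are all members, the 6 pathway genes with the smallest p, the 3 PP1 catalytic subunits and the genes most like *Gys2*, *Ppp1r3b* and *Ppp1r3c*; others were chosen after their values were seen. Some genes of the pathway list are counted but not reported here by name or drawn. Members and lists were chosen with earlier results of these data known.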

Additional observations from a re-analysis of the deposited data

How the results depend on the processing

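The number of members at an unadjusted p under 0.05 (2 of 8) ranged from 0 to 4 when 1 library was left out, that of the pathway list (2 of 25) from 0 to 8, and that of all genes past the study's criteria (383) from 99 to 1349. With no filter on low counts, 742 genes passed. With a GC offset, 0 pathway genes passed, and of all genes 387 were lower and 94 higher, against 249 and 134. No gene passed an adjusted p of 0.05 in edgeR or DESeq2 under any setting run. With the replicate number as a block, 1 member (*Ugp2*) and 1 pathway gene (*G6pc*) passed. Of all 13377 genes tested in that fit, 118 (0.882%) were lower and 203 higher by the study's criteria. The replicate numbers mark different mice, and the deviations of those mice correlated at −0.039, 0.069 and 0.017. Only 3 of 6 samples correlated best with their own number, so the samples were not treated as paired.

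Directions turned for 5 of 16 genes. When 1 library was left out, *Gyg* ran from −0.28 to 0.29, *Ppp1r3b* from −0.33 to 0.051, *Ppp1r3g* from −2.71 to 0.99, *Ppp1ca* from −0.098 to 0.54 and *Ppp1cc* from −0.0055 to 0.18 (log2 fold change). *Ppp1ca* was also at −0.078 with a GC offset. Of 176 values for single genes under an alternative, 131 kept their direction and their side of an unadjusted p of 0.05, 22 lost and 16 gained it, and 7 turned. The causes were not tested.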

Other observations

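The genes whose pattern over the 6 libraries was most like that of *Gys2* were *Cyp3a25* (Pearson's r of log2 CPM 0.996), *Gins4* (0.991) and *Elovl6* (0.990), among the 10662 genes tested whose mean count reached 50. *Cyp3a25*, a cytochrome P450, was at 255, 724 and 1001 CPM with vehicle and at 240, 272 and 193 CPM with insulin, with vehicle replicate 1 among the insulin libraries as for *Gys2*. *Ppp1r3b* was most like *Bod1* (0.979), *Rps27a* (0.978) and *Elf2* (0.974). *Ppp1r3c* was most like *Gm12663* (0.993), *Sclt1* (0.982) and *Tfdp2* (0.973). These values describe 6 libraries, in which all genes share the depth and base composition of each library, and 98, 4 and 21 genes had an r over 0.95 with *Gys2*, *Ppp1r3b* and *Ppp1r3c*.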
